A study of Homo sapiens with 1 sample.

Results

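The 7 mature miRNAs described here are hsa-miR-21-5p, hsa-miR-21-3p, hsa-miR-31-5p, hsa-miR-31-3p, hsa-miR-135b-5p, hsa-miR-135b-3p and hsa-miR-135a-5p (the species prefix is left out below), a group known for higher levels in colorectal carcinoma than in normal mucosa. They were chosen by name, although earlier results of these data were known, and all 7 were on the array, among 2549 human miRNAs. The sample was 1 microRNA array of DLD-1, a human colorectal carcinoma line, transfected with a negative control plasmid (pLVX-NC) that carries no circLONP2 insert. Cells overexpressing circLONP2, a circular RNA of the LONP2 gene, were not analysed here, and no normal mucosa was measured, so whether these miRNAs were raised in DLD-1 could not be examined. With 1 array there was no replicate of the culture, and every SD below is between spots of the same array. Each miRNA had 20 spots spread over 2 or 4 different probes. Brightness is the linear, background-subtracted signal of a spot, and it also depends on how well a probe binds. An order of brightness between miRNAs, or between the arms of a hairpin, is thus an order of signal and not of molecule number.

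A miRNA is cut from a hairpin precursor whose 5′ and 3′ sides each give a mature arm, named 5p and 3p. Usually one arm, the guide, is loaded into an Argonaute protein and pairs with mRNAs through its seed, the bases at positions 2 to 8, while the other arm is mostly degraded. miR-21-5p is the guide arm of its hairpin in most tissues and represses the tumour suppressor PDCD4. miR-31-5p targets RASA1 and is raised in a subset of colorectal tumours, and miR-135a and miR-135b repress the tumour suppressor APC of the Wnt pathway.

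The mature sequences are shown because the seed groups the members and because near-identical members can share signal on an array. RefSeq on GRCh38.p14 gave a mature sequence for 5 of the 7, and capitals mark the seed.
miR-21-5p: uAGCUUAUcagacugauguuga
miR-31-5p: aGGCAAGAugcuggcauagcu
miR-135b-5p: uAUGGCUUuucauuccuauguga
miR-135a-5p: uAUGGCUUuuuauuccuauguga
miR-135b-3p: aUGUAGGGcuaaaagccauggg

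miR-135b-5p and miR-135a-5p shared the seed AUGGCUU and were both 23 bases long. They differed by 1 substitution, C11U, counted from the 5′ end with the miR-135b-5p base first. The remaining members with a listed sequence each had a seed of their own within the group. Among the mature miRNAs of RefSeq, the miR-21-5p seed AGCUUAU was found in 1 other, miR-590-5p, and the miR-31-5p seed GGCAAGA in none. The miR-135b-3p seed UGUAGGG was found in 1 other, miR-135a-2-3p, which was not on the array.

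The hairpins are shown because the arms of one precursor are compared below, with capitals marking the arms that have a mature entry in RefSeq. miR-21-3p and miR-31-3p had no such entry.
MIR21: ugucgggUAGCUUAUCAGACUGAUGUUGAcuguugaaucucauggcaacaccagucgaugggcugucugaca
MIR31: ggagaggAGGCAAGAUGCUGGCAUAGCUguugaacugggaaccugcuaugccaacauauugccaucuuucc
MIR135B: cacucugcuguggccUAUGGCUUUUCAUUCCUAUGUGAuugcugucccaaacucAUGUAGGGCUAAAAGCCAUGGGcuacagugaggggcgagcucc
MIR135A1: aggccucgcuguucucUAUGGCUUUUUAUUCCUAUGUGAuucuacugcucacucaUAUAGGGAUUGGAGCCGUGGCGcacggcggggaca

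MIR21 lies at chr17:59841266-59841337 on the plus strand, within the span of the protein-coding gene VMP1. MIR31 lies at chr9:21512115-21512185 on the minus strand, within the long non-coding RNA gene MIR31HG. MIR135B lies at chr1:205448302-205448398 on the minus strand, within the spans of LEMD1 and BLACAT1. miR-135a-5p has a pair of genes, MIR135A1 at chr3:52294219-52294308 on the minus strand, within the span of GLYCTK, and MIR135A2 at chr12:97563812-97563911 on the plus strand, within the long non-coding RNA gene RMST. The annotation table used here gives gene spans only, so exons and introns were not assigned.

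Of the 7 members, 4 carried the Detected flag that the scanner software sets for each miRNA, beside 56.8% of all human miRNAs. The 4 were miR-21-5p, miR-21-3p, miR-31-5p and miR-135b-3p. The stricter flag of the software, for a spot well above background, divided the 4. Every spot was well above background for 2 members, both arms of miR-21, beside 37.3% of all human miRNAs. Both shares of members lay near or below those of the array as a whole, and nothing particular to the group can be read from them.

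The miR-21 arms were the brightest members. The 20 spots of miR-21-5p had a lowest brightness of 173.6, a median of 220.2 and a highest of 278.9, with a mean of 228.8 ± 31.6 (SD over 20 spots). The 20 spots of miR-21-3p had a lowest brightness of 808.0, a median of 886.9 and a highest of 922.3, with a mean of 880.0 ± 28.9 (SD over 20 spots). The spots of the arms did not overlap, and the 3p arm was the brighter one.

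The other 5 members gave signals near those of the negative controls, spots placed on the array to measure background. The 1000 negative control spots had a median of -2.35 and a 99th percentile of 12.5. That level was set mostly by 1 of the 7 control probes, with a median of 8.62, and without it the 99th percentile was 5.58.

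miR-31-5p had a lowest brightness of 5.66, a median of 12.0 and a highest of 19.5, with a mean of 12.6 ± 4.46 (SD over 19 spots). Of these spots, 2 were well above background and 9 exceeded 12.5, while all 19 exceeded 5.58. miR-31-3p had a lowest brightness of 2.92, a median of 6.93 and a highest of 12.0, with a mean of 7.31 ± 2.99 (SD over 19 spots). None of its spots was well above background or exceeded 12.5, and 11 exceeded 5.58. The spots of the miR-31 arms overlapped.

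miR-135b-3p had a lowest brightness of 6.43, a median of 10.5 and a highest of 14.2, with a mean of 10.7 ± 2.45 (SD over 20 spots). None of its 20 spots was well above background, 7 exceeded 12.5 and all 20 exceeded 5.58. It carried the Detected flag nonetheless. The other arm of this hairpin, miR-135b-5p, is the one usually taken as the guide. Its 17 spots ran from -4.45 to -0.56, with a median of -1.97 and a mean of -2.31 ± 1.25 (SD over 17 spots). The 20 spots of miR-135a-5p ran from -5.68 to 0.54, with a median of -3.21 and a mean of -3.21 ± 1.54 (SD over 20 spots). No spot of either miR-135 guide was positive and significant over the local background, and their medians lay close to that of the negative control spots. The guides of miR-135 were thus not detectable at the signal over background of this array, which does not show that they were absent from the cells.

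**Figure D1:**
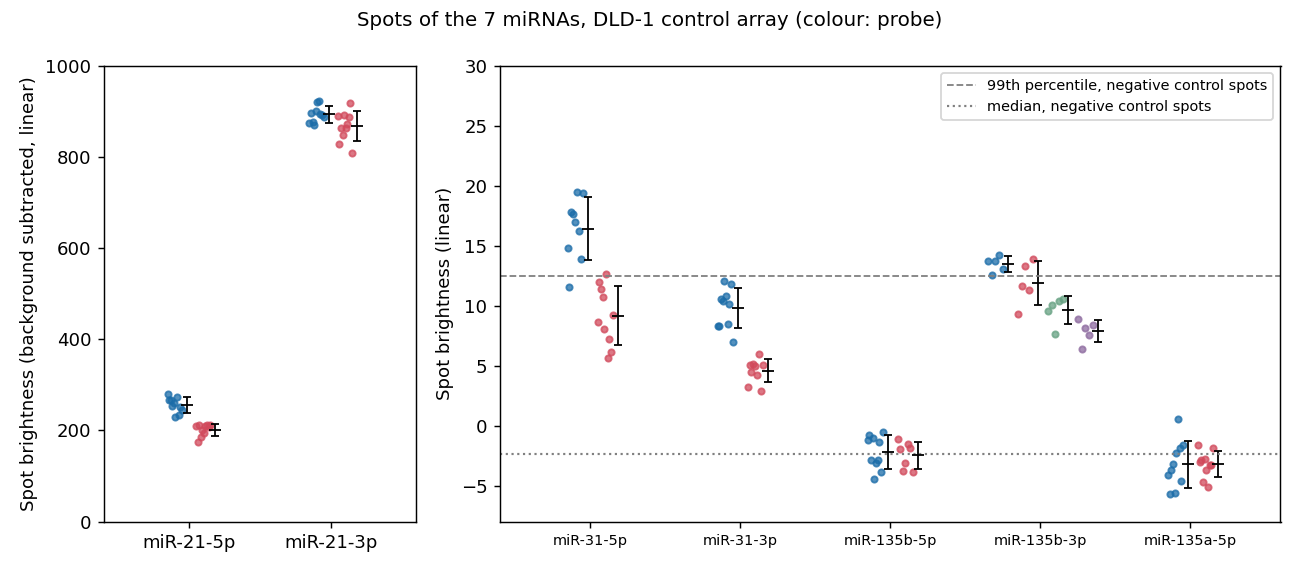
Brightness of every spot of the 7 miRNAs on the DLD-1 control array (linear, background subtracted, outlier spots left out). Each point is a spot, colours separate the probes of a miRNA, black bars give the mean and SD of a probe, and the left and right panels have different vertical axes. The dashed and dotted lines are the 99th percentile (12.5) and the median (-2.35) of the negative control spots. Both arms of miR-21 lay far above the other members, and all spots of miR-135b-5p and miR-135a-5p lay below 1.

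The level rank was taken from the log2 brightness, for which a mean was formed for each probe and these means were averaged per miRNA, with 1 as the lower limit of brightness. The relative log2 signal is this value minus the 75th percentile among detected probes, a brightness of 248.8. miR-21-3p had a relative log2 signal of 1.82 and was 113th of the 2549 human miRNAs. miR-21-5p, at -0.13, was 314th. The SD of the log2 signal was taken over all spots of a miRNA, so it includes the difference between its probes. The standard errors given below use the SD within a probe. A change of the signal by 1 SD between spots moved miR-21-3p between ranks 111 and 115 and miR-21-5p between ranks 284 and 363. The order of these arms was thus larger than the spread of their spots.

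The remaining members lay in the middle or the lower part of the order. miR-31-5p, at -4.38, was 1300th, miR-135b-3p, at -4.57, was 1341st, and miR-31-3p, at -5.24, was 1470th. Within 1 SD between spots, miR-31-5p ran from rank 1165 to 1415 and miR-135b-3p from 1260 to 1415, so their order did not exceed the spread. miR-31-3p, from 1354 to 1585, overlapped with both. miR-135b-5p and miR-135a-5p were among the 312 human miRNAs with all spots below 1, which share the lowest signal and have no order.

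The miRNAs next to a detected member in the order of signal were not distinguishable from it. miR-21-5p lay between miR-4306 and miR-422a, and miR-21-3p between miR-513a-5p and miR-4442. miR-31-5p lay between miR-491-5p and miR-431-5p, and miR-135b-3p between miR-4747-5p and miR-6511a-3p. The largest log2 difference among these 8 pairs was 0.03, between miR-4306 and miR-21-5p, whose SD between spots was 0.20.

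**Figure D2:**
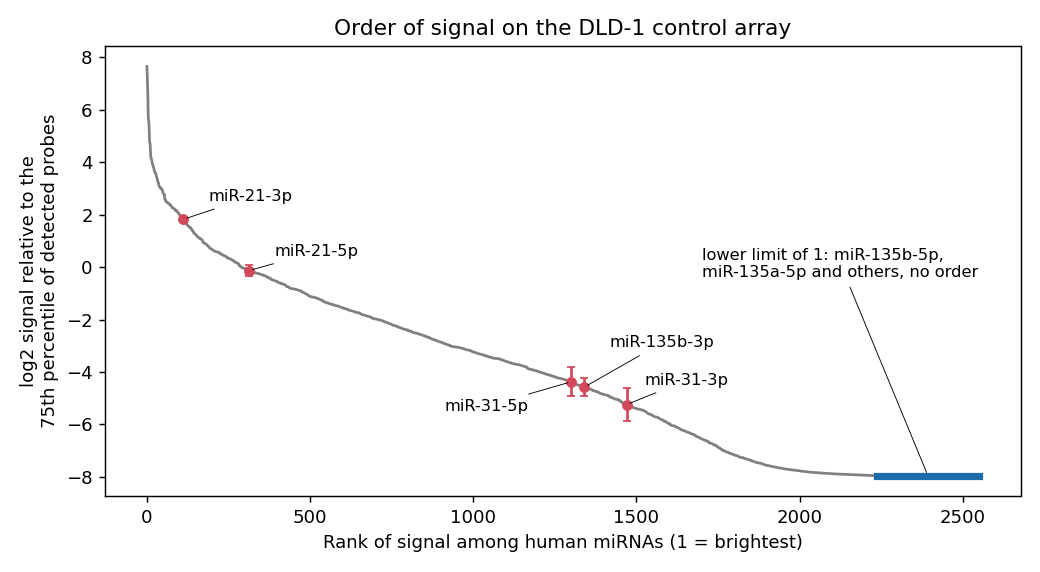
The relative log2 signal of the 2549 human miRNAs in decreasing order. Red points are members with their SD between spots, and the thick blue line is the 312 miRNAs at the lower limit, which include miR-135b-5p and miR-135a-5p. The miR-21 arms sit at ranks 113 and 314, and the other 3 members with a rank at 1300 or lower in the order.

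Probes of the same miRNA target one mature sequence, so their difference shows how far the choice of probe sets a level. The pair of miR-21-3p probes had mean brightness values of 893.0 and 866.9, a log2 difference of 0.04 (standard error 0.02 from the spots). The pair of miR-21-5p probes had means of 256.1 and 201.6, a log2 difference of 0.35 (standard error 0.04). There were 834 detected miRNAs with exactly 2 probes whose spots were all well above background. Their median log2 difference between probes was 0.23 and the middle 50% ran from 0.09 to 0.53. The miR-21-3p probes were closer to each other than those of most of these miRNAs, since 10.8% had a smaller difference. For miR-21-5p, 62.2% had a smaller difference.

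Members with a dim but measurable signal had the following differences between probes. miR-31-5p probes had means of 16.4 and 9.16, a log2 difference of 0.87 (standard error 0.15). The 2 spots well above background both belonged to its brighter probe. miR-31-3p probes had means of 9.78 and 4.57, a log2 difference of 1.11 (standard error 0.14). The 4 probes of miR-135b-3p ran from 7.89 to 13.5, a log2 difference of 0.78 (standard error 0.09) between the brightest and the dimmest. These differences exceeded their standard errors, but at such brightness a few units of background move a log2 value strongly. After normexp background correction, which adds 50 to every spot, all 3 lay between 0.090 and 0.17, below the 0.27 of miR-21-5p. The added 50 narrows ratios most at dim spots, so this turned order does not measure how well the probes agree. The probes of miR-135b-5p and miR-135a-5p had all spots at the lower limit and gave no difference.

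The arm balance of miR-21 ran towards the 3p arm. The log2 difference of 5p minus 3p was -1.96 (standard error 0.02 from the spots), a 3.88-fold higher signal of miR-21-3p. Over the 4 possible pairs of a 5p and a 3p probe it ran from -2.15 to -1.76, so every pair of probes gave the same order. The log2 values that the authors deposited, 6.08 for miR-21-5p and 8.26 for miR-21-3p, gave a difference of -2.19. Binding strength differs between the probes of the arms, and its part in this order was not tested.

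Other hairpins give the background for this balance. There were 81 pairs of arms for which every spot of both arms was well above background, and the 3p arm was the brighter one in 26 of them (32.1%). The median log2 difference of 5p minus 3p was 0.73 and the middle 50% ran from -0.41 to 2.31. Among these 81 pairs, the value of miR-21 was exceeded in the direction of the 3p arm by 2, miR-4701 with -2.99 and miR-1266 with -2.34. This selection leaves out pairs with a dim arm. Among the 255 pairs with both arms detected, a comparison added after the values were seen, the 3p arm was the brighter one in 87 (34.1%), and 38 pairs (14.9%) lay further towards the 3p arm than miR-21.

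**Figure D3:**
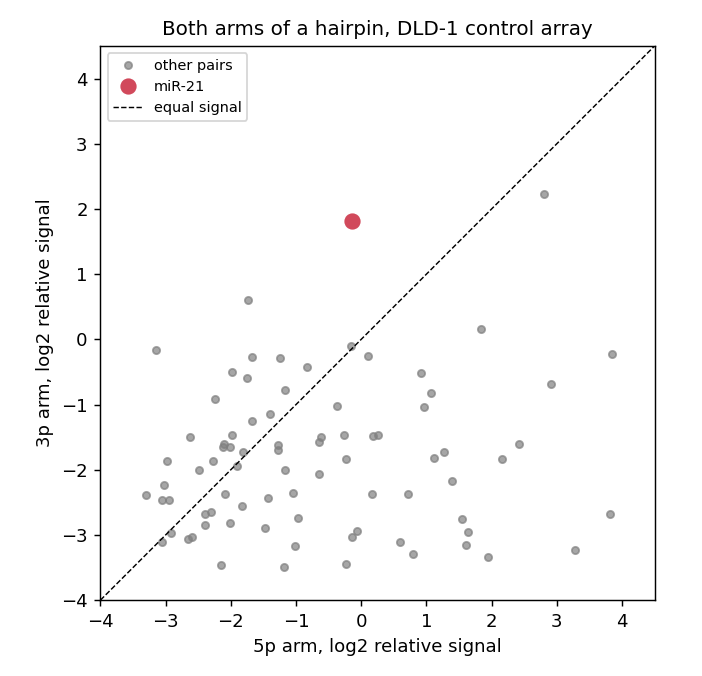
Signal of the 3p arm against that of the 5p arm, both as relative log2 signal, for the 81 pairs with every spot of both arms well above background. The dashed line marks equal signal. miR-21 (red) lies 1.96 above the line on the side of the 3p arm, where 26 of the pairs lie.

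For the other hairpins the balance was not resolved. The miR-31 arms had a log2 difference of 5p minus 3p of 0.87 (standard error 0.10 from the spots), but over the 4 pairs of probes it ran from -0.12 to 1.86, so the order of the arms depended on the probe. After normexp correction the difference was 0.11, but the added 50 narrows any ratio at such brightness, so this value cannot decide the balance. For miR-135b, the 5p arm had no spot above 1 and the 3p arm had none well above background, and no ratio was formed. The same held for miR-135b-5p against miR-135a-5p. These differ at 1 base, and neither gave a signal above the lower limit of 1.

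The 3p arm of MIR135A1, miR-135a-3p, is not one of the 7, and was set beside its undetected partner. Its 20 spots had a lowest brightness of 1226, a median of 1530 and a highest of 1705, with a mean of 1488 ± 141 (SD over 20 spots). The 4 probes had means from 1280 to 1626. It was 56th of the human miRNAs, brighter than miR-21-3p, while no spot of miR-135a-5p exceeded 1. The 3p sequence, in the last capitals of the MIR135A1 hairpin above, belongs to this locus, whereas miR-135a-5p can come from MIR135A1 and MIR135A2. What the probes of miR-135a-3p bound was not tested.

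Base composition moved with signal across the array and is given beside the members. Mature sequences were matched by name for 2248 human miRNAs (88.2%). The share detected was higher with more G and C bases, from 20.6% of the 402 miRNAs with 40% or less, to 50.4% of the 711 with over 40% to 50%, 66.3% of the 510 with over 50% to 60% and 80.0% of the 625 with over 60%. Across these miRNAs of 1 array, Spearman's rho between the G and C share and the log2 signal was 0.48, as a description, since miRNAs on the same array are not independent. The miR-135 guides had low shares, 34.8% for miR-135b-5p and 30.4% for miR-135a-5p. miR-21-5p, with 36.4%, fell in the same class, in which it was the 7th brightest of 402. miR-31-5p had a share of 52.4%. The part of base composition in the missing signal of the miR-135 guides was not tested.

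**Figure D4:**
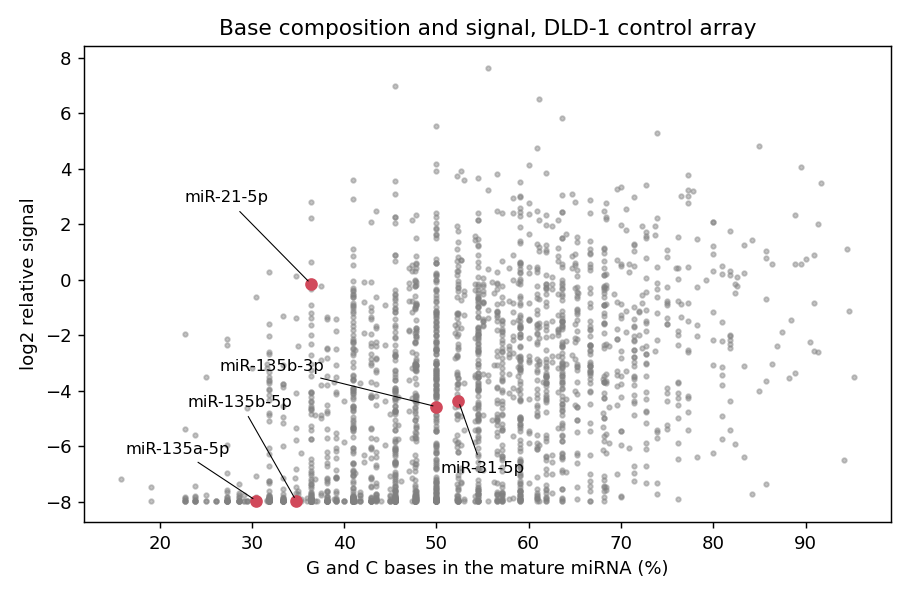
The relative log2 signal against the percentage of G and C bases in the mature sequence, for 2248 human miRNAs (grey) and the 5 members with a listed sequence (red). The lowest row of points is the lower limit of 1. miR-21-5p stands among the brightest of the miRNAs with 40% G and C or less, and both miR-135 guides lie at the lower limit.

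The seed mate of miR-21-5p, miR-590-5p, carried the Detected flag, and its mean brightness was 15.5 ± 2.61 (SD over 20 spots). Of its spots, 1 was well above background. It was 1213th of the human miRNAs, far below miR-21-5p in the order of signal.

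A list of other miRNAs known to be raised in colorectal carcinoma was set beside the members. Of the 15 measured, 10 carried the Detected flag (66.7%, beside 56.8% of all human miRNAs) and 5 had every spot well above background (33.3%, beside 37.3%). They had a median relative log2 signal of -3.93 beside -4.57 for the 7 members and -4.27 for all human miRNAs. The brightest was miR-92a-3p, of the miR-17-92 cluster, with a mean of 585.5 ± 72.6 (SD over 20 spots), the only one of the 15 above miR-21-5p. None was above miR-21-3p. miR-155-5p, which is also known from activated lymphocytes, had a mean of 212.4 ± 15.5 (SD over 17 spots), whose spots overlapped with those of miR-21-5p. The others with every spot well above background were miR-93-5p, miR-25-3p and miR-221-3p, with means from 141.1 to 164.5. Of the miR-183 cluster, miR-182-5p and miR-96-5p were not detected and had mean brightness values of -0.33 and -1.76. miR-183-5p carried the Detected flag with 9 of 20 spots well above background. Its mean of 18.1 ± 16.7 (SD over 20 spots) covers spots from -1.29 to 52.7.

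miRNAs typical of cell types were set beside the label of the cells. Over all human miRNAs, 56.8% were detected and 37.3% had every spot well above background. Of 9 epithelial or intestinal miRNAs, 7 were detected (77.8%) and 6 had every spot well above background (66.7%). The brightest was miR-141-3p, with a relative log2 signal of 3.59. miR-192-5p and miR-194-5p, which are abundant in intestinal epithelium, were not detected. Of 4 blood miRNAs, 2 were detected (50%) and none had every spot well above background. Of 3 stromal and endothelial miRNAs, miR-145-5p and miR-126-3p were detected and had every spot well above background (66.7% for both). miR-143-3p, which shares a transcript with miR-145, was not detected. Of 4 miRNAs of muscle, liver and brain, 2 were detected (50%). The neuronal miR-124-3p had every spot well above background, with a mean of 77.2, and the muscle miR-133a-3p had 1 of 19 spots so, with a mean of 14.2. The stromal and endothelial share with every spot well above background equalled the epithelial one, and each list was short. These counts thus do not tell cell types apart. The part of non-specific binding in such signals was not tested.

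The deposited log2 values kept the miR-21 arms above the other members. miR-31-5p and miR-135b-3p were among 183 human miRNAs that share the value 2.33. In contrast, miR-31-3p, miR-135b-5p and miR-135a-5p held the lowest value, 2.32, as did all 1101 miRNAs that were not detected. Below the miR-21 arms these values thus hold no order among members beyond detection.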

How the data were processed

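The sample, DLD-1 cells with the control plasmid on 1 array, was grouped from its label. Per the file headers, spot intensity values come from Agilent Feature Extraction 11.0.1.1 (Cy3), which had subtracted the local background and set the flags used here. The log2 values deposited by the authors were, in the methods, quantile normalized with GeneSpring GX, across arrays that are not named. The labels describe ligation of the dye to miRNA, the methods labelled cDNA.

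Of 50980 human miRNA spots, 4.06% were marked as outliers and left out (5 of the 140 of the members), and 0 were saturated. Lower brightness was raised to 1 before taking log2. Means were formed over spots, then probes. Probes counted as detected where their miRNA was flagged and a share of 0.5 or more of their spots lay well above background. Alternatives covered detection, background correction (normexp in limma 3.58.1, R 4.3.3, on median signals, offset 50), outlier spots, the probe summary, the total signal, the deposited values and the reference percentile. Python 3.11.15, numpy 2.4.6 and pandas 2.3.3 were used, and the calculations were tested on simulated data. The text names the members, their neighbours in the order of signal, seed mates and fixed lists. Members and lists were chosen with earlier results of these data known. miR-135a-3p, miR-4701 and miR-1266 were added once their values were known. The number of arrays limits the precision: with 1, no test between conditions was made.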

Additional observations from a re-analysis of the deposited data

How the results depend on the processing

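The count of 4 detected members depended on the criterion, as did the share of all human miRNAs. It was 2, the miR-21 arms, when 0.5 or more of a probe's spots had to be well above background, beside 49.9% of human miRNAs. It was also 2 when every spot of a probe had to be, beside 45.8%. It was 5, with miR-31-3p added, when a share of 0.5 or more had to be positive and significant only, beside 68.9%. The counts thus moved along with the whole array, and nothing particular to the members can be read from them.

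miR-21-5p (-0.13) had a signal of 0.15 from the total signal, 0.21 from the deposited values and 1.66 with the percentile over all human miRNA probes. miR-21-3p (1.82) had 2.09, 2.40 and 3.61 in the same order and 1.60 after normexp correction. miR-31-5p (-4.38) had -2.09 after normexp correction, -3.54 from the deposited values and -2.59 over all probes. miR-31-3p (-5.24) had -2.21 after normexp correction and -3.45 over all probes. miR-135b-3p (-4.57) had -2.13, -3.54 and -2.78 in the order given for miR-31-5p, -4.21 by its brightest probe and -5.03 by the total signal. The rank of miR-21-3p, 113, was 131 by the brightest probe and 117 from both the total signal and the deposited values. The other 24 ranks computed stayed within 1 SD between spots of the reported ones, but several could hardly move. The deposited values gave 1266 for both miR-31-5p and miR-135b-3p, the first place of their tie of 183, which holds no order. A rank among detected miRNAs differs from the reported one only by brighter miRNAs that were not detected. The miR-21 arms had 0 outlier spots, so keeping outliers moved their ranks only through other miRNAs.

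The miR-21 arm difference of -1.96 was -1.72 after normexp correction and -2.19 from the deposited values, and kept its sign in all 5 alternatives. Of these, keeping outlier spots could not change it, since both arms had 0 such spots. The 2 of 81 pairs of arms further towards the 3p arm than miR-21 became 38 of 255 when both arms only had to be detected, an alternative added after the values were seen. After normexp correction the probe difference became 0.27 for miR-21-5p, 0.17 for miR-31-5p, 0.11 for miR-31-3p and 0.090 for miR-135b-3p. The normexp offset of 50 narrows ratios. The cause was otherwise not tested. Alternatives for signals at the lower limit, for the miR-135b arms, for miR-135b-5p against miR-135a-5p, and for undetected arms from the total signal or the deposited values gave no value. No paired analysis was possible because the sample was a lone array. The signal over background limits what can be said of miR-31 and miR-135.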

Other observations

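miRNAs known to be lowered in colorectal carcinoma gave a further view of the same array. Of 12 measured, 4 carried the Detected flag (33.3%, beside 56.8% of all human miRNAs) and 3 had every spot well above background (25%, beside 37.3%). miR-378a-3p, which is encoded in an intron of the metabolic coactivator gene PPARGC1B, reached a mean of 1110 ± 173 (SD over 20 spots) in brightness and was 92nd of the human miRNAs, above both arms of miR-21. miR-30a-5p had a mean of 42.7 ± 5.21 (SD over 19 spots) and miR-145-5p one of 37.0 ± 5.48 (SD over 18 spots). The 8 that were not detected fell into a negative and a positive set. miR-143-3p, miR-137, miR-1-3p and miR-9-5p had mean brightness values between -2.72 and -1.19. miR-133b, miR-139-5p, miR-497-5p and miR-195-5p had means between 7.56 and 9.98. No normal mucosa was measured, so no level is called lowered here.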
